A study of Mus musculus with 6 samples.

Results

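The cytosolic ribosomal protein genes encode the proteins of the small and the large ribosomal subunit. They were chosen by symbol (Rpl or Rps followed by a number, with Rplp0, Rplp1, Rplp2, Rpsa and Fau added and the Rps6k kinases removed) and by a minimum of 600 counts summed over the 6 libraries. The rule found 84 genes among the 46095 rows of the count table. By symbol, 34 were assigned to the small subunit and 50 to the large subunit. Of the 84, 77 are standard protein-coding genes, 3 are paralogs (Rpl22l1, Rpl7l1 and Rps27l) and 4 are annotated as pseudogenes or bear a pseudogene symbol (Rps3a2, Rps3a3, Rpl6l and Rpl32p). The subunit groups include these paralogs and pseudogenes. Another 7 rows with a matching symbol fell below the minimum.

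The RNA came from BV2, an immortalised line of mouse microglia, the resident macrophages of the brain. The CON group was 3 libraries of untreated cells. The sTREM-1 group was 3 libraries of cells given recombinant sTREM-1 protein, the soluble form of the receptor TREM-1, at 1 μg/mL for 6 h. The labels give no separate passage or culture date for the replicates, so the p-values measure the spread between these wells of a single line.

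Each ribosome holds 1 copy of nearly every ribosomal protein, and cells make these proteins in matched amounts. Much of this control acts on translation rather than on mRNA level: the transcripts start with a run of pyrimidines, the TOP element, through which mTOR and the RNA-binding protein Larp1 switch their translation on and off. Several ribosomal proteins also act outside the ribosome. Rpl5, Rpl11 and Rpl23 bind the ubiquitin ligase Mdm2 when ribosome assembly is disturbed, and Rps6 is the classical substrate of the S6 kinases.

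The start sites were read first, because the TOP element is the sequence that these genes are known to share. RefSeq promoter windows (GRCm38.p6, 250 bases before to 50 bases after each start) were found for 60 of the 84 genes. A run of at least 8 pyrimidines that begins with C lay within 20 bases of an annotated start in 31 of the 60 genes (51.7%), and in 14.5% of the 27025 genes with a RefSeq promoter. The examples below give 15 bases before and 15 bases from the start on, 5′ to 3′ on the strand of the gene; the longest run of C and T that begins with C is in capitals. Rps6, Fau and Rpl7a show a run that spans the start, and Rpl19 one that ends just before it. Rpl22l1 and Rps27l are paralogs, and Rpl12 is the gene with the largest difference between the groups by single rows.
Rps6, chr4:86857353-86857382, minus strand: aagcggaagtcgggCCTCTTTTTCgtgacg
Fau, chr19:6057932-6057961, plus strand: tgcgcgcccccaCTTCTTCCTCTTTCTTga
Rpl19, chr11:98026909-98026938, plus strand: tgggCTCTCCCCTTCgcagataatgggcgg
Rpl7a, chr2:26910792-26910821, plus strand: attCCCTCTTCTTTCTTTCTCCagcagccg
Rpl22l1, chr3:28805493-28805522, plus strand: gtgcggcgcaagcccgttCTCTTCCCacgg
Rps27l, chr9:66946071-66946100, plus strand: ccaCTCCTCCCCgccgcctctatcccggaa
Rpl12, chr2:32961697-32961726, plus strand: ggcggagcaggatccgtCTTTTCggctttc

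In Rps6 the run of 10 pyrimidines begins 1 base before the annotated start, and in Fau the run of 16 begins 3 bases before it. Rpl19 and Rps27l each have another annotated start (98026710 and 66946413), around which the longest run in the 30 bases was 5 and 4; for Rpl19 it is also the start of the gene in GENCODE M21. Annotated starts can lie some bases away from the start that cells use, so the position of a run is a description of the annotation. The run was present in 6 of the 11 standard genes that were later called higher and that had a promoter (54.5%), and in 23 of the 45 that were not called (51.1%). The letters CTCTTTCC, searched on the strand of the gene over the whole 300 bases, were found in 8 of the 60 genes (13.3%) and in 1.76% of all genes with a promoter. The letters CCGGAAG, searched on both strands, were found in 25 of the 60 (41.7%) against 9.93%, and AAGATGGC, also on both strands, in 7 of the 60 (11.7%) against 3.19%.

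The libraries held 40070633 to 45877107 counts. The summed counts of 10 microglial markers were 2234 to 2265 CPM (counts per 1e6 counts of the library) in the CON libraries and 2483 to 2524 CPM in the sTREM-1 libraries, although Aif1 was listed at 0 in all 6; 4 of the 9 markers tested were higher, among them the receptor Csf1r (log2 fold change 0.53 ± 0.023 SE). The 4 astrocyte markers summed to 0.117 to 0.474 CPM, the 4 neuronal markers to at most 0.299 CPM and the 4 fibroblast markers to at most 0.515 CPM, while the 4 oligodendrocyte markers summed to 7.21 to 7.89 CPM in CON and 5.60 to 6.64 CPM in sTREM-1 libraries. The part of these markers in the results was not tested. Libraries of the same group differed by a mean chi-square of 3.53 to 5.54 per gene, and libraries of different groups by 25.2 to 27.7.

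Ribosomal protein mRNA levels moved little after sTREM-1. Compared with the CON group, 13 of the 84 genes were higher and 5 were lower, and 66 passed in neither direction. A gene was called where edgeR's quasi-likelihood test gave an adjusted p below 0.05 (Benjamini-Hochberg adjustment over all 14120 genes tested). That is 21.4% of the ribosomal protein genes called, where 30.5% of all tested genes were called (16.5% higher and 14.1% lower). All 84 genes passed the filter on low counts. At an unadjusted p-value under 0.05 there were 22 of the 84 (26.2%), beside 38.7% of all tested genes. The split of 13 higher to 5 lower depended on the scaling: it was 12 to 9 with library totals and 12 to 10 with upper quartile scaling. The lower count also rose to 8 without CON replicate 3 and to 10 without sTREM-1 replicate 2.

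The differences were small in size. The median log2 fold change was −0.0013 over the 84 genes and −0.0017 over all tested genes, and the median absolute log2 fold change was 0.039 against 0.127. Of the 84 genes, 43 had a fold change below 0 and 41 above. By single rows, a call together with a change of at least 1.2-fold was met by 1 ribosomal protein gene, Rpl12, beside 10.7% of all tested genes. The 95% interval of the fold change lay wholly within 1.2-fold in either direction for 78 of the 84 genes (92.9%) and for 46.0% of all tested genes. The exceptions were Rpl12, Rpl22l1, Rpl7l1, Fau, Rps27 and Rps29.

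High expression makes a small interval easier to reach, so the comparison was repeated among the 2417 genes with a mean of at least 100 CPM. Of the 57 ribosomal protein genes in this range, 15 were called (26.3%), and 54.7% of all genes in it were called. The intervals of 55 of the 57 (96.5%) and of 85.3% of all genes in the range lay within 1.2-fold. Among the 27 ribosomal protein genes below 100 CPM, 3 were called (11.1%), beside 25.5% of all tested genes below 100 CPM.

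**Figure D1:**
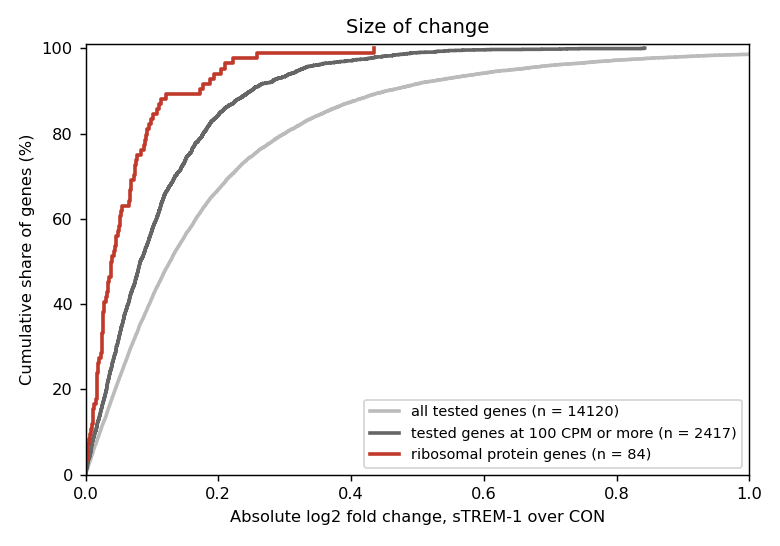
Cumulative share of genes (percent, vertical axis) by absolute log2 fold change of sTREM-1 over CON (horizontal axis) for all 14120 tested genes, the 2417 tested genes with at least 100 CPM and the 84 ribosomal protein genes. The line of the ribosomal protein genes rises first, with a median of 0.039 against 0.127 for all tested genes and 0.083 for those with at least 100 CPM.

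The share of each library taken up by ribosomal protein genes was close in the 2 groups. It was 2.82%, 2.83% and 2.78% in the CON libraries and 2.84%, 2.83% and 2.82% in the sTREM-1 libraries, so that the groups overlapped. The large subunit genes took up 1.60% ± 0.012 (SD, n = 3) of the counts in CON and 1.62% ± 0.0027 (SD, n = 3) in sTREM-1 libraries. For these genes the groups did not overlap (1.584% to 1.608% in CON, 1.620% to 1.625% in sTREM-1 libraries). The small subunit genes took up 1.21% ± 0.013 (SD, n = 3) and 1.21% ± 0.011 (SD, n = 3), and their groups overlapped. Of the 34 small subunit genes, 4 were called higher and 1 lower (14.7% called); of the 50 large subunit genes, 9 were called higher and 4 lower (26.0%), where 30.5% of all tested genes were called. Whether the subunits differed from each other was not tested.

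**Figure D2:**
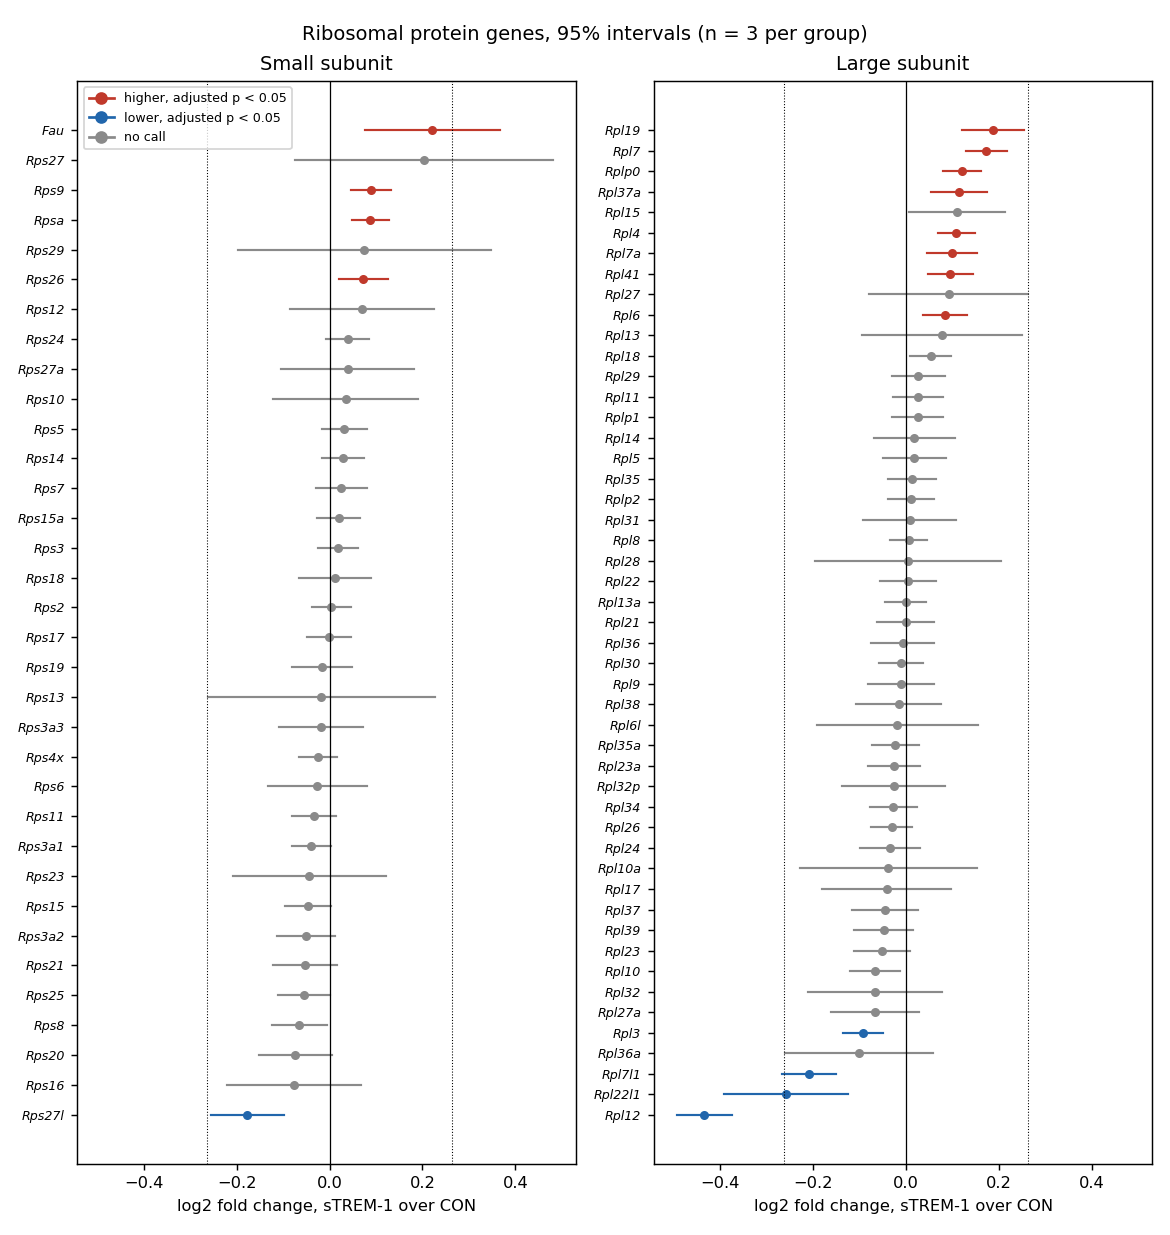
Log2 fold change of sTREM-1 over CON (points) with its 95% interval (lines) for the 34 small subunit genes and 49 of the 50 large subunit genes, with genes called higher in red, lower in blue and others in grey. Dotted lines mark 1.2-fold; Rpl12 is the only gene whose interval lies wholly beyond one of them.

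The proteins of the ribosomal stalk, which recruit translation factors, were read together. Rplp0, the scaffold of the stalk, was at 1956, 1934 and 1944 CPM in the CON libraries and at 2116, 2044 and 2182 CPM in the sTREM-1 libraries. The groups did not overlap, and Rplp0 rose by a log2 fold change of 0.12 ± 0.020 (SE, adjusted p = 2.42e-05, edgeR). The acidic stalk proteins that bind to it did not pass the test: the log2 fold change was 0.02 (95% interval −0.03 to 0.08) for Rplp1 and 0.01 (−0.04 to 0.06) for Rplp2. With a correction for GC content and length both were called higher (adjusted p = 0.0192 and 0.0413, edgeR).

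Rpl12 sits at the base of the stalk, where it holds the factor-binding region of the large subunit together with Rplp0. By single rows it showed the largest change of the 84 genes. Its level was 174, 170 and 170 CPM in the CON libraries and 129, 127 and 124 CPM in the sTREM-1 libraries. The groups did not overlap, and the log2 fold change was −0.44 ± 0.029 (SE, adjusted p = 6.61e-13, edgeR). Rpl12 lies on chromosome 2 from 32961559 to 32965345 (GRCm38, GENCODE M21).

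Ribosomal protein genes have many processed copies in the mouse genome, and reads of a gene and a near-identical copy are hard to assign. Gm10275, whose sequence matches the coding part of Rpl12 at 100% identity, held 100822 counts over the 6 libraries, where Rpl12 itself held 37249. Gm10275 was at 400, 396 and 414 CPM in the CON libraries and at 417, 394 and 390 CPM in the sTREM-1 libraries. Its groups overlapped and its log2 fold change was −0.01 ± 0.026 (SE, adjusted p = 0.802, edgeR). Summed with its 5 copies in the table, Rpl12 was at 578 ± 9.33 CPM in CON and 530 ± 16.1 CPM in sTREM-1 libraries (SD, n = 3), and the log2 fold change of the sum was −0.12 ± 0.024 (SE, adjusted p = 0.000108, edgeR). The fall of Rpl12 was thus called by gene and by sum, with a size that depended on which rows were read. As sums, the falls of Rpl22l1 (−0.29), Rpl7l1 (−0.21), Rps27l (−0.18) and Rps13 (−0.17) were larger, and Rpl12 did not reach 1.2-fold. The sum includes the row of Rpl12 itself, so the call by sum is not independent of the call by gene.

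**Figure D3:**
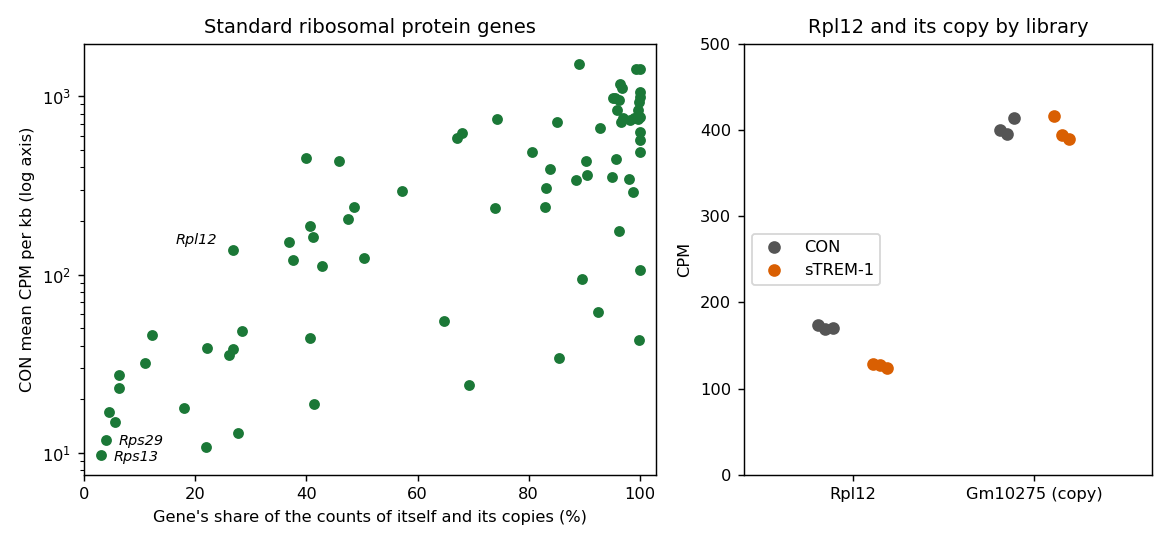
Left, CON mean CPM per kilobase of transcript (log axis) of the 77 standard genes against the percentage of counts that the gene holds among itself and its near-identical copies. Right, CPM of Rpl12 and of its copy Gm10275 in each library; Rpl12 lies at 170 to 174 CPM in CON and 124 to 129 CPM in sTREM-1 libraries, while the groups of Gm10275 overlap.

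The same question bears on the levels of all members. Near-identical copies (at least 95% identity over at least 80% of the coding sequence) were found in the table for 74 of the 84 genes, 437 copies in all. In 27 of the 84 the named gene held under 50% of the counts of its family, and in 9 it held under 20%: Rps13 (3.04%), Rps29 (4.01%), Rps23 (4.51%), Rpl10a (5.57%), Rps10 (6.20%), Rpl17 (6.32%), Rps12 (10.9%), Rpl15 (12.3%) and Rpl13 (18.0%). The standard genes spanned 9.72 to 1526 CPM per kilobase in the CON group, a ratio of 157. With copies added, the span was 35.6 to 1723 CPM per kilobase, a ratio of 48.4. The median level of standard genes was 17.9 CPM per kilobase where the gene held under 20% of its family's counts, and 690 CPM per kilobase where it held over 80%. The length is that of a single annotated transcript for each gene, so these levels are approximate.

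The highest levels per kilobase in the CON group were those of Rps24 (1526 CPM per kilobase), Rplp0 (1432) and the large subunit gene Rpl8 (1422). The lowest were those of Rps13 (9.72 CPM per kilobase), Rpl28 (10.9) and Rps29 (11.9). None of these passed the test except Rplp0, and Rps24 passed after a correction for GC content and length (adjusted p = 0.00396, edgeR). Rps13, a small subunit gene, had a log2 fold change of −0.02 by its own row (95% interval −0.26 to 0.23). Summed with its 5 copies it went from 198 ± 4.23 to 176 ± 9.18 CPM (SD, n = 3), a log2 fold change of −0.17 ± 0.031 (SE, adjusted p = 6.09e-05, edgeR). With sums of families in place of genes, 15 were called higher and 6 lower; the sums of Rpl15, Rps10 and Rps13 were called where the single rows were not. All 18 genes called by their own rows were also called in the same direction as sums. Each sum includes the gene's own row, which mostly held the larger part of the counts, so this agreement is not independent. Of the 437 copies, 224 were tested, and 7 were called higher and 7 lower (6.25% called, beside 30.5% of all tested genes). The tested copies had a median of 2.62 CPM in the CON group.

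Rps29 also marks the edge of the rule, with 1195 counts over the 6 libraries just inside the minimum. Just outside it was Rpl3l, the muscle paralog of Rpl3, with 151 counts (21, 18 and 25 in CON, 36, 26 and 25 in sTREM-1 libraries). Rps28 had 26 counts, while its copy Gm10443 had 30089. Rpl10l and Rpl39l, paralogs of Rpl10 and Rpl39, and Rps4l, annotated as a transcribed pseudogene, had 0 counts in every library. A count of 0 allows a level of up to 0.0654 to 0.0749 CPM per library (3 counts of the total, counting error only). Rps12l1 had 79 counts and Rpl32l had 4.

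The 3 paralogs above the minimum were all lower after sTREM-1. They encode proteins that resemble a standard ribosomal protein and that can take its place or act apart from it. Rpl22l1, the paralog of the RNA-binding protein Rpl22, was at 39.0, 42.7 and 35.2 CPM in CON and at 32.8, 35.9 and 28.9 CPM in sTREM-1 libraries. Its groups overlapped, and the log2 fold change was −0.26 ± 0.065 (SE, adjusted p = 0.00249, edgeR). Rpl22 itself was at 217, 228 and 210 CPM in CON and 222, 222 and 213 CPM in sTREM-1 libraries, with a log2 fold change of 0.00 (95% interval −0.06 to 0.06).

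Rpl7l1, related to Rpl7, was at 178, 175 and 177 CPM in CON and at 150, 152 and 157 CPM in sTREM-1 libraries. The groups did not overlap and the log2 fold change was −0.21 ± 0.028 (SE, adjusted p = 8.59e-07, edgeR). Rpl7, which is part of every large subunit, moved the other way, from 842, 870 and 869 CPM to 995, 949 and 965 CPM, a rise of 0.17 ± 0.022 on the log2 scale (adjusted p = 2.58e-07, edgeR).

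Rps27l, a p53-inducible paralog of Rps27, was at 70.3, 72.1 and 67.8 CPM in CON and at 61.0, 62.4 and 62.6 CPM in sTREM-1 libraries. The groups did not overlap and the log2 fold change was −0.18 ± 0.038 (SE, adjusted p = 0.000606, edgeR). The row of Rps27 was at 5.01, 3.88 and 4.58 CPM in CON and at 5.32, 5.54 and 4.64 CPM in sTREM-1 libraries, and its log2 fold change of 0.20 (95% interval −0.07 to 0.48) did not pass the test. Rps27 held 27.7% of the counts of its family, and the sum of the family had a log2 fold change of −0.05 ± 0.075 (SE).

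The ratio of a paralog to its standard gene within a library does not depend on the scaling. On the log2 scale the ratio of Rpl22l1 to Rpl22 went from −2.49 ± 0.082 in CON to −2.76 ± 0.13 in sTREM-1 libraries (SD, n = 3), that of Rpl7l1 to Rpl7 from −2.28 ± 0.037 to −2.67 ± 0.061, and that of Rps27l to Rps27 from 3.97 ± 0.22 to 3.59 ± 0.14. In each pair the 3 sTREM-1 libraries lay below the 3 CON libraries. With Rps27 summed with its copies, however, the groups overlapped for Rps27l (1.98, 2.13 and 1.83 in CON, 1.84, 1.80 and 1.93 in sTREM-1 libraries), and the difference in the log2 ratio went from −0.38 to −0.13. Rpl22 had no near-identical copy among the counted rows, so its ratio stayed the same. With copies added to Rpl7, which held 98.3% of its family's counts, the groups of Rpl7l1 still did not overlap. The two-sided exact permutation p-value, with the standard gene read by its own row, was 0.10 for each pair (before adjustment for several pairs), which is the smallest that 3 against 3 libraries allow. These paralogs were chosen with earlier results of these data known.

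**Figure D4:**
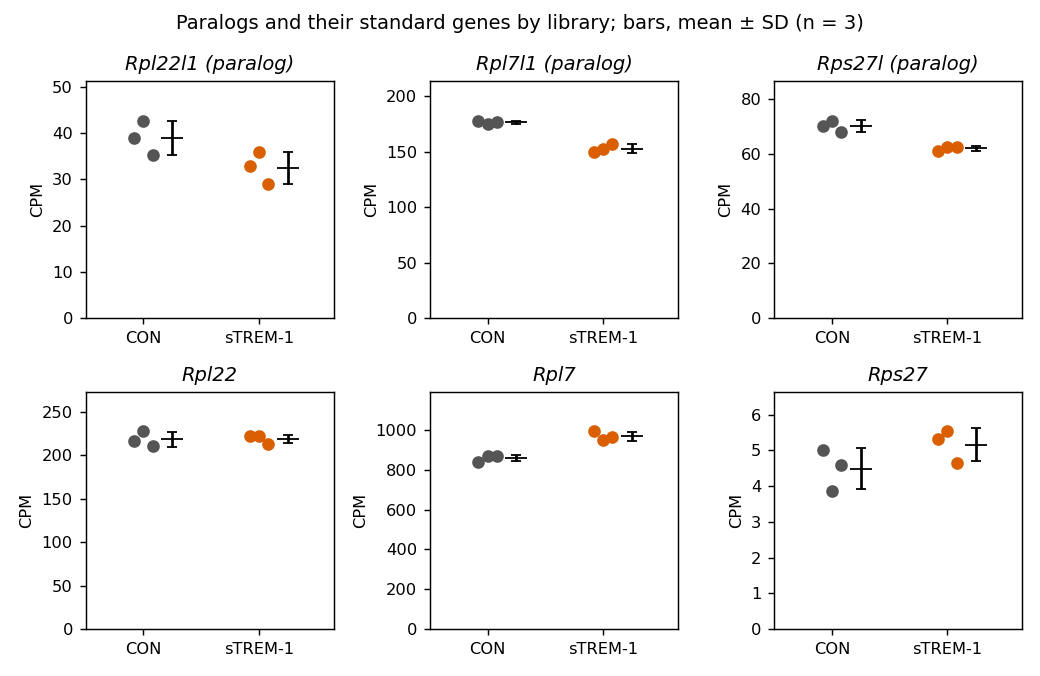
CPM (vertical axes, from 0) in each library for the paralogs Rpl22l1, Rpl7l1 and Rps27l (top) and their standard genes Rpl22, Rpl7 and Rps27 (bottom), with the mean and SD of the 3 libraries of each group as bars. The groups of Rpl7l1 and Rps27l do not overlap, those of Rpl22l1 do, and Rpl7 is higher after sTREM-1.

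The remaining called gene that was lower was Rpl3, a core protein of the peptidyl transferase centre, at 802, 777 and 783 CPM in CON and 736, 742 and 737 CPM in sTREM-1 libraries. Its groups did not overlap and it fell by 0.09 on the log2 scale (SE 0.021, adjusted p = 0.000867, edgeR). Of the 5 genes called lower, 2 were thus standard genes, beside 13 standard genes called higher. Of the 77 standard genes 19.5% were called, beside 30.5% of all tested genes (16.5% higher and 14.1% lower). The number of the 84 genes called lower was 9 with library totals and 10 with upper quartile scaling.

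Fau and Rpl19 were also among the largest rises. Fau, which encodes the small subunit protein S30 fused to a ubiquitin-like protein, went from 17.5, 17.4 and 16.9 CPM to 21.5, 19.7 and 19.1 CPM, a log2 fold change of 0.22 ± 0.071 (SE, adjusted p = 0.0166, edgeR). The groups did not overlap, but the call was lost without CON replicate 3 or without sTREM-1 replicate 1, where the highest adjusted p was 0.131. Rpl19 went from 305, 352 and 339 CPM to 377, 372 and 387 CPM, a log2 fold change of 0.19 ± 0.033 (SE, adjusted p = 4.53e-05, edgeR). The CON libraries of Rpl19 were more widely spread than its sTREM-1 libraries, and the groups did not overlap. Summed with its copies, Rpl19 had a log2 fold change of 0.11 ± 0.021 (SE, adjusted p = 0.000102, edgeR).

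A further 8 genes called higher lay between a log2 fold change of 0.07 and 0.11. They were Rpl37a (0.11), Rpl4 (0.11), Rpl7a (0.10), the very short Rpl41 (0.10), Rps9 (0.09), Rpsa (0.09), Rpl6 (0.08) and Rps26 (0.07), of which all except Rpsa are named here after their values were seen. Rpsa, also known as the laminin receptor, was at 1141, 1155 and 1147 CPM in CON and at 1229, 1200 and 1230 CPM in sTREM-1 libraries, without overlap. Rps26 lost its call with library totals, with upper quartile scaling and without CON replicate 1, CON replicate 2 or sTREM-1 replicate 1, where its adjusted p reached 0.203 (edgeR). In all, 21 of the 84 genes (25%) had groups that did not overlap, 14 higher and 7 lower, beside 40.7% of all tested genes.

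**Figure D5:**
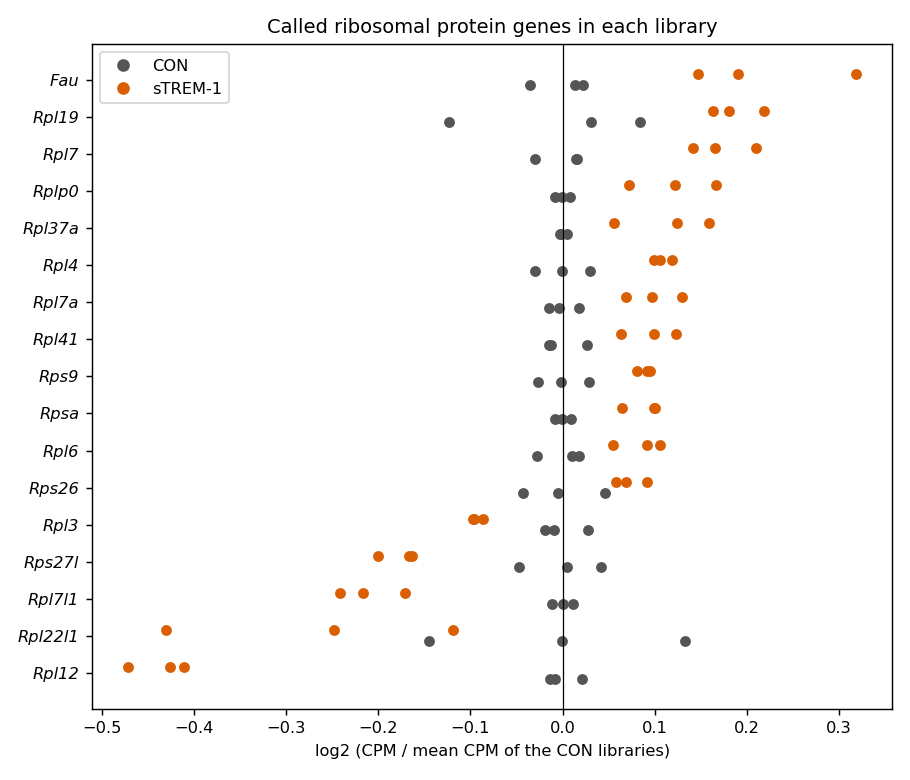
Log2 ratio of the CPM in each library to the mean CPM of the CON libraries (horizontal axis) for 17 of the 18 called genes, with CON libraries in grey and sTREM-1 libraries in orange. Among these 17 genes the groups overlap only for Rpl22l1.

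The Mdm2 binders were at 90.2 ± 1.04 and 91.3 ± 1.05 CPM (Rpl5), 201 ± 1.04 and 204 ± 3.13 CPM (Rpl11), and 171 ± 3.26 and 165 ± 4.53 CPM (Rpl23) in CON and sTREM-1 libraries (SD, n = 3). None of the 3 passed the test, and their 95% intervals together spanned log2 fold changes of −0.11 to 0.09. Rps6 was at 33.6 ± 1.64 and 33.0 ± 1.11 CPM (SD, n = 3), with an interval of −0.13 to 0.08. Rpl13a, part of a complex that silences inflammatory mRNAs in myeloid cells, was at 876 ± 25.2 and 876 ± 8.88 CPM (SD, n = 3), with an interval of −0.05 to 0.04. Rps3, which also takes part in DNA repair, had a log2 fold change of 0.02 (interval −0.03 to 0.06), and Rps27a, a source of ubiquitin, one of 0.04 (−0.11 to 0.18). These values are those of single rows. The rows of Rpl5, Rpl11, Rpl23, Rps6 and Rps27a held 40.7%, 48.5%, 41.2%, 26.7% and 28.5% of their families' counts. None of these families passed the test as a sum. For the standard genes Rpl10, Rpl39 and Rps4x, the log2 fold change was −0.07 for Rpl10 (interval −0.12 to −0.01, adjusted p = 0.0529, edgeR), −0.05 for Rpl39 (−0.11 to 0.02) and −0.02 for Rps4x (−0.07 to 0.02). Rpl10 was called lower with some other scalings or filters, with DESeq2, with a replicate block and without CON replicate 3 or sTREM-1 replicate 2 (adjusted p from 0.0113). It was not called with TMM without ribosomal protein genes, with no filter, after thinning or with the GC and length correction alone. Rpl39 was called lower without sTREM-1 replicate 2 (adjusted p = 0.0209, edgeR).

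Genes that are handled together with the ribosomal proteins were listed with earlier results known. Among 20 other genes with a TOP element, 3 were higher and 2 lower, which is 25% called. The share was 30.5% over all tested genes and 54.7% over those with at least 100 CPM. The median level of the 20 genes was 355 CPM in the CON group. The elongation factor Eef2 went from 2892 ± 38.8 to 3226 ± 106 CPM (SD, n = 3; log2 fold change 0.16, adjusted p = 2.31e-07, edgeR), and the poly(A) binding protein Pabpc1 rose by 0.06 on the log2 scale (adjusted p = 0.0233, edgeR). The elongation factor Eef1a1 (0.03), the ribosome-bound scaffold Rack1 (0.02) and Tpt1 (0.03) did not pass the test. Among 6 host genes of small nucleolar RNAs, none was higher and 2 were lower (33.3% called), Snhg1 (−0.30) and Snhg12 (−0.61), both named after their values were seen. The host gene Gas5, whose own transcript carries a TOP element, did not pass (−0.05).

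Of 12 genes that control TOP mRNAs through mTOR, 2 were higher and 1 lower (25% called). Mtor was at 39.3 ± 1.10 CPM in CON and 39.5 ± 3.02 CPM in sTREM-1 libraries (SD, n = 3), Larp1 had a log2 fold change of 0.03, and the translation repressor Eif4ebp1 one of 0.08; none of these passed the test. The call for the S6 kinase Rps6kb2, named after its values were seen, rested on a single library: its counts were 32, 27 and 37 in CON and 19, 29 and 210 in sTREM-1 libraries, and the log2 fold change was 1.43 with all libraries and −0.52 without sTREM-1 replicate 3. Among 6 chaperones that escort single ribosomal proteins, 1 was higher and 2 lower. Among 34 translation initiation factors, 10 were higher and 7 lower (50% called), and among 11 genes of ribosome quality control, 1 was higher and 3 lower (36.4%). The share was 30.5% over all tested genes and 54.7% over those with at least 100 CPM. The median CON level was 214 CPM for the initiation factors and 120 CPM for the quality control genes. Some initiation factors, called ones included, were also counted among the other genes with a TOP element.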

How the data were processed

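RNA sequencing of BV2 cells was analysed in 3 CON and 3 sTREM-1 libraries. The counts that the authors deposited are whole numbers for each symbol, without normalization. The paper names RSEM and edgeR, and the submitters' processing notes name HISAT2 2.0.4 and human genome builds, although the symbols are of mouse genes. The build and annotation used for counting, and the use of strand, are therefore uncertain. How reads were shared among near-identical copies is not given in the sources used here. The paper's text gives a larger n than the 3 libraries per group of the labels.

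Low counts were removed with filterByExpr at a minimum of 10. Libraries were scaled by TMM, and the groups were compared by quasi-likelihood in edgeR 4.0.16 (R 4.3.3); the model held the group alone. CPM values follow TMM scaling, but marker sums and shares use library totals. Standard errors were derived from the F statistic. Copies were found with blastn 2.17.0 against GENCODE M21 transcripts. Counts were summed with those of copies as an alternative chosen after seeing the data. Lengths and GC content were available for 98.8% of the ribosomal protein genes and 90.7% of tested genes. The procedure was tested on simulated data. The smallest library held 40070633 counts, and rows of few counts carry more counting error. Intervals for counts of 0 cover counting error only.

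The members and gene lists were chosen with earlier results of these data known. Genes are named by rule: the 5 largest rises and 5 largest falls among called genes, stalk proteins, paralogs with their standard genes, members with roles outside the ribosome, the 3 highest and 3 lowest levels, members next to the count minimum and genes from related lists; any other gene is marked as picked afterwards. A few genes that these criteria select are left out of the text and plots. Alternatives were RLE size factors, TMM without ribosomal protein genes, library totals, upper quartile scaling, other filters, DESeq2 1.42.0, a replicate block, thinning to the smallest total, a correction for GC content and length (loess, span 0.3), leaving out each library and other thresholds.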

Additional observations from a re-analysis of the deposited data

How the results depend on the processing

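The count of all genes called ranged from 3608 to 4613 over the alternatives, within 1.5 times of 4312. Of the 18 ribosomal protein genes called, 16 were called in the same direction under all 17 alternatives other than sums with copies; the exceptions were Rps26 and Fau. The number called lower (5) was 9 with library totals, 10 with upper quartile scaling, 8 with the replicate block, 2 without paralogs and 1 with at least 1.2-fold required; leaving out single libraries gave 5 to 10. The number called higher (13) was 20 with the GC and length correction joined to the replicate block, and 0 with at least 1.2-fold required. The median log2 fold change of the 84 genes (−0.0013) was −0.018 with library totals, −0.022 with upper quartile scaling, 0.028 with the GC and length correction and 0.027 with that correction and the replicate block; leaving out single libraries gave −0.018 to 0.0062. The cause was not tested.

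Same-numbered libraries did not deviate together (correlations of −0.018, −0.033 and −0.014), so the numbers were not taken as pairs. With the replicate block 4613 genes were called.

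Among the genes named here, 13 that were not called changed direction under some alternative. With library totals the log2 fold change was −0.0057 for Rplp2, −0.013 for Rpl22, −0.011 for Rpl8 and −0.012 for Rpl28. With upper quartile scaling it was −0.010 for Rplp2, −0.017 for Rpl22, −0.0038 for Rpl5, −0.0026 for Rps3, −0.016 for Rpl8 and −0.017 for Rpl28. Thinning gave −0.00066 for Rpl22, and no filter gave 0.0015 for Rpl13a. The GC and length correction gave −0.0061 for Rpl22, 0.0045 for Rpl13a and 0.028 for Rps13, and with the replicate block −0.0059, 0.0046 and 0.026. Sums with copies gave −0.052 for Rps27, −0.016 for Rpl5, 0.048 for Rps6, −0.047 for Rps27a and −0.11 for Rps29. Leaving out single libraries gave −0.018 to 0.047 for Rplp1, −0.0011 to 0.025 for Rplp2, −0.024 to 0.033 for Rpl22, −0.062 to 0.0070 for Rps6, −0.018 to 0.022 for Rpl13a, −0.0048 to 0.032 for Rps3, −0.067 to 0.10 for Rps27a, −0.0067 to 0.015 for Rpl8, −0.075 to 0.042 for Rps13, −0.038 to 0.039 for Rpl28 and −0.021 to 0.13 for Rps29. No value of changed sign was past the threshold.

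Rps13, Rps29, Rps27 and Rpl28 have few counts and the widest intervals among the standard genes shown. Their rows held 3.04%, 4.01%, 27.7% and 21.9% of their families' counts. With copies added, the SE went from 0.119 to 0.031 for Rps13 and from 0.134 to 0.044 for Rps29. It went from 0.136 to 0.075 for Rps27 and from 0.098 to 0.049 for Rpl28.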
